A study of Mus musculus with 1600 samples.

Results

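Igdcc3, Prtg, Igdcc4 and Neo1 encode 4 related surface receptors of the immunoglobulin superfamily, and their levels were followed over single cells of the mouse limb at 3 embryonic stages. The 4 genes are 4 of the 22092 gene symbols in the table, and all 4 were among the 13125 genes with a count in at least 10 cells. Igdcc3 and Prtg were chosen by their stage levels, which fall steeply after E10.5, and Igdcc4 and Neo1 as their relatives, so the stage values below describe that choice and are not a test of it. The cells are labelled as hind limb cells of C57BL/6 embryos that carried a Scx-GFP transgene, a green fluorescent reporter named for scleraxis, a transcription factor of tendon progenitors. Every stage carried the transgene, and the labels name neither its promoter fragment nor a sort for GFP. The series addresses which cell types a developing limb holds and how their transcriptomes differ with age. On the Fluidigm C1, which isolates cells in a microfluidic chip, embryonic days E10.5, E12.5 and E15.5 gave 120, 160 and 200 captured cells. Limbs of siblings from 1 litter were pooled for a time point, which leaves 1 sample per stage, and no test between stages could be made.

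The 4 proteins belong to the family of Dcc, the netrin receptor of growing axons. Each has a row of immunoglobulin domains, a row of fibronectin type III domains, 1 pass through the membrane and a tail inside the cell. Neogenin, the product of Neo1, binds netrins and the repulsive guidance molecules (RGMs), can be cleaved at the cell surface, and takes part in axon guidance, cell adhesion and bone morphogenetic protein signalling. Protogenin, the product of Prtg, is known from the early mesoderm and neural tube of the embryo, and Igdcc3 (also called Punc) and Igdcc4 (also called Nope) from the developing mouse nervous system.

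Of the 480 cells, 3 had fewer than 1000 detected genes and were dropped, which left 119 E10.5 cells with 33742559 counts, 158 E12.5 cells with 46009284 counts and 200 E15.5 cells with 46035725 counts. A single cell held between 2681 and 1185267 counts. Levels are given as CPM, counts scaled to 1 common library total, for the summed counts of a stage, and the range in brackets is the exact 95% Poisson interval, which covers counting error only. Cells were sequenced in 12 library pools of 40, where pools 1 to 3 are E10.5, pools 4 to 7 are E12.5 and pools 8 to 12 are E15.5, and a pool is a technical split, not a replicate. The 3 stages were never in 1 pool, so pool and stage cannot be told apart. The limb identity genes went against the label of the earliest cells. Pitx1, a transcription factor of the hind limb, was at 0, 169 and 68.7 CPM in stage order, with not 1 count in the E10.5 cells. The forelimb factor Tbx5 was at 67.9, 0.739 and 6.32 CPM in stage order. Of the limb identity list, Pitx1 and Tbx4 were called higher and Tbx5 lower at both later stages, by the rule given below for the receptors. Every direction taken against the cells labelled E10.5 carries this difference, and its part in the results was not tested.

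All 4 genes lie on chromosome 9 of GRCm38, a position the choice did not use. Igdcc4 (65101486 to 65137940, plus strand) is followed after 3248 bases by Igdcc3 (65141189 to 65185872, plus strand). Neo1 (58874687 to 59036441, minus strand) and Prtg (72806874 to 72917291, plus strand) lie on either side of this pair. The neighbouring Igdcc4 and Igdcc3 took different courses over the stages, so the 250 bases before the RefSeq start of each are shown. For Igdcc3 that start lies upstream of the GENCODE start given above. They were read from the RefSeq promoter table (GRCm38.p6), plus strand, with each GC box (GGGCGG on either strand, the site of Sp1-type zinc finger factors) in capitals.
Igdcc3, chr9:65140904-65141153: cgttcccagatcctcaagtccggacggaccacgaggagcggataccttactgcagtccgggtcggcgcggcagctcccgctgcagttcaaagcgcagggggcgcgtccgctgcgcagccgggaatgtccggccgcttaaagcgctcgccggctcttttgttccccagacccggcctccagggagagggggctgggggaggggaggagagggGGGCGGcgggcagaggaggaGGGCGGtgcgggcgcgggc
Igdcc4, chr9:65101236-65101485: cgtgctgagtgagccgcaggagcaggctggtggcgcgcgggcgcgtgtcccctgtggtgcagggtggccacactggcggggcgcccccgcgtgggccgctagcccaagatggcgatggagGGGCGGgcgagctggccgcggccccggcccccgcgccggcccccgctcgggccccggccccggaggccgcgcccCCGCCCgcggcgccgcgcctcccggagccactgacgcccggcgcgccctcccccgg
Both stretches are rich in GC, at 72% for Igdcc3 and 84% for Igdcc4, with 28 and 39 CpG dinucleotides and 2 GC boxes each. Over the whole 300-base windows of the table, 250 before and 50 after a start, the 4 genes held 2 or 3 GC boxes, and 35.7% of all 32851 promoters held at least 1. Their GC content was 73.3% for Igdcc3, 76.7% for Prtg, 84.7% for Igdcc4 and 82.7% for Neo1, against a median of 52.7% over all promoters. None of the 4 windows held the letters TATAAA, which 13.6% of all promoters hold. CCAAT, held by 37.4% of promoters, was found once each in Prtg and Neo1, and the E-box CANNTG, held by 72.3%, only in Prtg. All motifs were searched on both strands and counted separately where letters overlap. Igdcc3 and Prtg held 3 GC boxes each, and Igdcc4 and Neo1 2 each. With 2 genes on a side no more is read from this.

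The 3′ untranslated regions of the 4 genes were searched for CTACCTC, the complement of the seed of the let-7 microRNAs, because the Lin28 and let-7 axis was among the lists followed here. let-7 microRNAs rise as tissues mature, and the RNA-binding proteins Lin28a and Lin28b block their processing. Mature let-7 was not measured here, and 9 of its 12 entries in the count matrix had 0 counts. RefSeq gives let-7a-5p, let-7g-5p and miR-98-5p with the same seed (bases 2 to 8, in capitals).
let-7a-5p: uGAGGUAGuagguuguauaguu
let-7g-5p: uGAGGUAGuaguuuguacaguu
miR-98-5p: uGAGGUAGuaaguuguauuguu
Igdcc3 held 2 matches in 538 bases, Prtg 2 in 4989, Igdcc4 1 in 2412 and Neo1 0 in 2587. The 5 matches are shown with the bases before and after them, on GRCm38, plus strand, with the seed match in capitals.
Igdcc3, chr9:65185708-65185729: gtgactctcagcacCTACCTCa
Igdcc3, chr9:65185788-65185809: gcccgaaagcactcCTACCTCa
Prtg, chr9:72912559-72912580: cctctgctgaatagCTACCTCa
Prtg, chr9:72913989-72914010: cgctcctgtttataCTACCTCc
Igdcc4, chr9:65136322-65136343: tcctaacaacatgaCTACCTCa
Of 2205 genes with a 3′ region of like length (within 1.5 times), 0.136% held as many matches as Igdcc3 and 4.40% held any. For Prtg, with its long region, 4.76% of 1450 genes held as many and 25.7% held any. At least 1 match was held by 13.8% of 3327 genes like Igdcc4 in length and 14.9% of 3206 like Neo1. Over 11472 genes with a 3′ region, 10.6% held at least 1 match. A match is a run of letters and does not show that let-7 binds there.

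Igdcc3 was read in every one of the 119 cells labelled E10.5 and was close to absent at the later stages. Its level was 1006 CPM (995 to 1017) in the E10.5 cells, 7.69 CPM (6.91 to 8.54) in the E12.5 cells and 0.652 CPM (0.440 to 0.930) in the E15.5 cells. Its pools held 1168, 916 and 907 CPM at E10.5, then 0.171, 11.6, 14.6 and 6.58 CPM at E12.5. At E15.5, pools 8 to 11 had 0 counts and pool 12 had 2.73 CPM. The pools of the cells labelled E10.5 lay close together, and none came near a pool of a later stage. Over single cells labelled E10.5, Igdcc3 ranged between 9.77 and 2798 CPM with a median of 920 CPM, and 2 cells held under 3 counts. Of these 119 cells, 84 lay above the highest cell of E12.5, at 639.5 CPM, and 0 of the 358 later cells reached the E10.5 median.

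Prtg was lost over the same span but was less even at the start. Its level was 289 CPM (283 to 295) in the E10.5 cells, 9.74 CPM (8.86 to 10.7) in the E12.5 cells and 3.76 CPM (3.22 to 4.36) in the E15.5 cells. The pools held 303, 332 and 219 CPM at E10.5, 22.1, 3.14, 16.0 and 1.04 CPM at E12.5, and 1.77, 11.5, 0, 4.72 and 2.09 CPM at E15.5. Again no later pool approached the pools of E10.5, while the pools of E12.5 and E15.5 overlapped. Of the 119 cells labelled E10.5, 92 (77.3%, Clopper-Pearson 95% interval 68.7% to 84.5%) held a Prtg count and 27 held none. Cells ranged up to 1479 CPM with a median of 162 CPM. All 92 cells with Prtg also held Igdcc3, but so did all 119 cells of the stage, so no link is read from this.

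**Figure D1:**
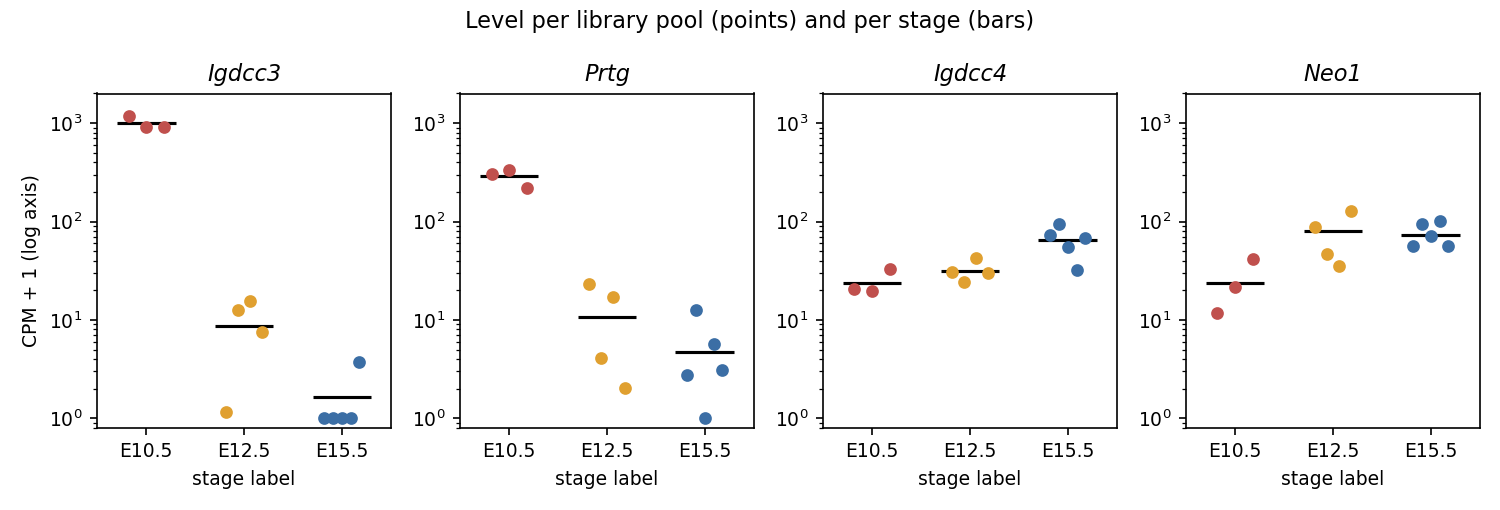
CPM with 1 added, on a log axis, of each library pool (points) at each stage label, with the level of the summed stage as a bar, for Igdcc3, Prtg, Igdcc4 and Neo1. Igdcc3 stood at 907 to 1168 CPM in the 3 pools of E10.5 and at most 14.6 CPM in any later pool, whereas Igdcc4 reached its highest level, 64.6 CPM, at E15.5.

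Prtg was compared with genes of a like level in the same cells. It was read in 77.3% of them, against 91.6% for the median of 651 genes within 1.5 times of its CPM, 1.84% of which were read in fewer cells. After each cell was thinned to 50000 counts, which 115 of the cells labelled E10.5 reach, Prtg was read in 72.2% of them, the median of 695 like genes was 80.9%, and 17.7% of those genes were read in fewer cells. Thinned Igdcc3 was read in 98.3%, against a median of 100% for 145 genes of its own level. The ratio of variance to mean over thinned cells was 17.4 for Prtg, against a median of 17.5 over its like genes, and 18.5 for Igdcc3, against 18.4. The spread of either gene over cells was thus close to that of the median gene of its level, and the low detection of Prtg stood out less once depth was made equal.

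**Figure D2:**
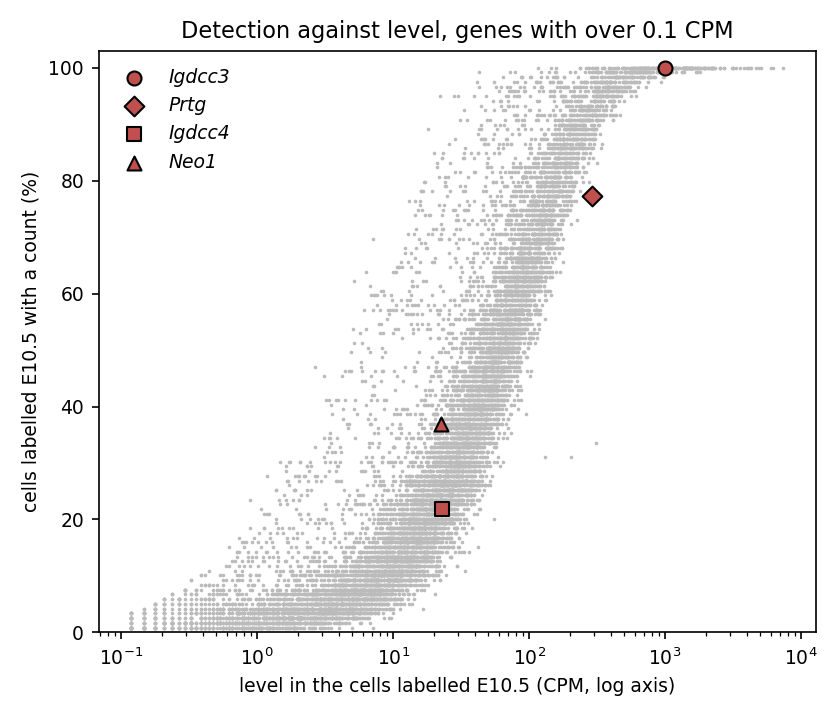
Share of the 119 cells labelled E10.5 with a count (percent) against the level of the gene there (CPM, log axis) for all tested genes with over 0.1 CPM (grey), with the 4 receptor genes marked. Igdcc3 lies at 100% of cells, and Prtg at 77.3%, below the 91.6% of the median gene of its level.

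A few cells carried most of the Igdcc3 and Prtg counts left at the later stages. At E12.5, 15 of 158 cells held an Igdcc3 count, 8 of them only 1 or 2 counts, and the other 7 held 97.2% of the counts. The highest 3 cells were at 639.5, 367 and 126 CPM, in an unnamed, the cartilage-like and the endothelium-like cluster. Prtg was read in 18 of 158 cells, and 8 cells with at least 3 counts held 97.1% of its counts, at 14.5 to 1504 CPM. Only 1 cell held both, of 15 with Igdcc3 (6.67%) and 18 with Prtg (5.56%). All 7 of the Igdcc3 cells with at least 3 counts and 7 of the 8 such Prtg cells also held Pitx1, and 0 of either held Tbx5. Over all 158 cells of the stage 79.1% held Pitx1 and 3.80% Tbx5, so little is read from these few cells.

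At E15.5, Igdcc3 was read in 5 of 200 cells, all in pool 12, and 1 skin epithelium-like cell held 26 of the 30 counts. Prtg was read in 11 of 200 cells, 6 of them with at least 3 counts, and 1 cell at 567.3 CPM held 53.2% of its counts. Both were read in 2 cells. After thinning to 50000 counts, 1.08% of 185 E15.5 cells held Igdcc3, against 4.70% of 149 E12.5 cells, and 2.70% and 5.37% held Prtg. Tbx5, low after E10.5, was also read in a few cells of each later stage. Cells with 1 or 2 counts of a gene rest on few reads. Whether such counts come from the cell they are listed in was not tested.

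Igdcc4 went the other way, with its highest level at the last stage. It stood at 22.7 CPM (21.2 to 24.4) in the E10.5 cells, 30.3 CPM (28.7 to 31.9) in the E12.5 cells and 64.6 CPM (62.3 to 67.0) in the E15.5 cells. Its pools held 19.5, 18.7 and 31.9 CPM at E10.5, 30.0, 23.1, 41.5 and 29.2 CPM at E12.5, and 72.3, 94.0, 54.2, 31.3 and 66.2 CPM at E15.5. Pool 11 of E15.5 lay within the range of the E12.5 pools and below pool 3 of E10.5, and the other 4 pools of E15.5 lay above every earlier pool. Igdcc4 was read in 26 of 119, 37 of 158 and 100 of 200 cells, and after thinning in 13.9%, 18.1% and 41.6%.

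Neo1 was lowest in the cells labelled E10.5. The E10.5 cells held 22.6 CPM (21.0 to 24.3), the E12.5 cells 79.4 CPM (76.8 to 82.0) and the E15.5 cells 72.3 CPM (69.9 to 74.8). The pools held 10.9, 20.8 and 40.2 CPM at E10.5, 87.1, 45.4, 34.2 and 126.6 CPM at E12.5, and 55.7, 92.9, 69.7, 101 and 55.3 CPM at E15.5. Pool 6 of E12.5 lay below pool 3 of E10.5, the pools of E15.5 all lay above those of E10.5, and the pools of E12.5 and E15.5 overlapped. Neo1 was read in 44 of 119, 92 of 158 and 124 of 200 cells, and after thinning in 22.6%, 47.0% and 51.9%.

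**Figure D3:**
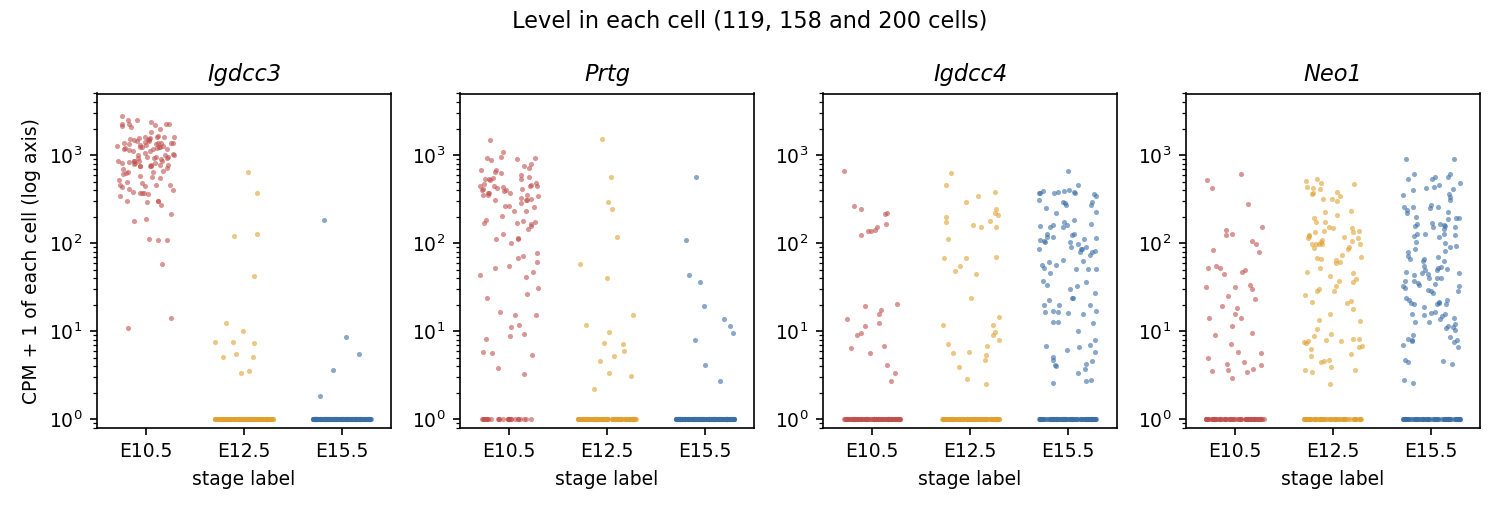
CPM with 1 added, on a log axis, in each of 119, 158 and 200 cells at the 3 stage labels, for the 4 receptor genes. Points on the bottom line are cells with 0 counts, and Igdcc3 has a count in all 119 E10.5 cells, in 15 of 158 E12.5 cells and in 5 of 200 E15.5 cells.

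To be called higher or lower, a gene needed a log2 ratio (CPM with 5 added) of at least 1 in size and pools of the stages that did not overlap. In E12.5 against E10.5 cells, Igdcc3 was 131-fold lower (log2 ratio -6.32) and Prtg 29.7-fold lower (-4.32). Over all genes 2.83% were called lower and 7.76% higher, and since these contrasts chose the genes, nothing is read from 2 of 4 being lower. Igdcc3 had the lowest log2 ratio of the 13125 genes and Prtg had rank 6. Igdcc4 (0.35) and Neo1 (1.61) were not called. The Prtg fold leaned on 1 pool, being 52.5-fold without pool 4. Without pool 3 (2.03) or pool 6 (1.78), Neo1 was called higher.

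At E15.5 against E12.5, none of the 4 was called, while 1.63% of all genes were called lower and 2.99% higher. Of these called genes 35.3% were lower with total scaling and 24.9% with median-of-ratios scaling. Igdcc3 was 11.8-fold lower (log2 ratio -1.17), with pool 12 of E15.5 above pool 4 of E12.5, and was called without pool 4 (-1.43) or pool 12 (-1.34). Without pool 12 it had 0 counts at E15.5 and was at least 89.8-fold lower, against a floor of 3 counts summed over the pools left. Prtg was 2.59-fold lower (-0.75), which became 1.47-fold without pool 4 and 4.62-fold without pool 9. Igdcc4 was 2.14-fold higher (0.98), just under the threshold, and was called higher without pool 6 (1.09) or pool 11 (1.12). Neo1 had a ratio of -0.13, which was 0.30 without pool 7, so no direction is given for it.

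Over the whole span, at E15.5 against the cells labelled E10.5, Igdcc3 (-7.48), Prtg (-5.07) and Neo1 (1.49) were called. Of all genes 5.01% were lower and 11.2% higher. Igdcc3 was 1544-fold lower, or at least 11747-fold without pool 12 by the same floor, and again had the lowest ratio of all genes, Prtg was 76.9-fold lower with rank 3, and Neo1 was 3.20-fold higher. The Prtg fold was 137 without pool 9, which holds the cell at 567.3 CPM. Igdcc4 was 2.84-fold higher (1.33) and was not called because of the overlap of pool 11 with pool 3, and it was called without pool 3 (1.53) or pool 11 (1.46). The comparisons share the cells labelled E10.5 or E12.5 and are not independent of each other.

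Cells were clustered without the 4 genes, and their levels were then read by cluster. The cells labelled E10.5 fell into only 2 clusters. Of the 119, 114 lay in a cluster led by Asb4 and Hsp90aa1, which stays unnamed because it rests on 1 limb bud marker, Msx1, with Igdcc3 at 1049 CPM (1038 to 1060) and Prtg at 292 CPM (286 to 298). The other 5 lay in an endothelium-like cluster that holds Cdh5, the cadherin of blood vessels, with Igdcc3 at 380 CPM (354 to 407) and Prtg at 245 CPM (224 to 266). Igdcc3 was read in each of these 5 cells, with 81 to 290 counts, or 178, 293, 374, 499 and 857 CPM. These values lie within the range of the other 114 cells, 9.77 to 2798 CPM, and 5 of 5 lie under their median of 942 CPM. The cluster also held 3 cells at E12.5, where Igdcc3 was at 48.2 CPM, and 10 at E15.5, where it was at 0.260 CPM. At E12.5 all 58 counts lay in 1 of the 3 cells, and at E15.5 there was 1 count in 1 of the 10. No course over the stages is read from these few cells. The 3 cells labelled E12.5 that joined the large E10.5 cluster had 0 counts of Igdcc3 and of Prtg.

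At E12.5 Igdcc3 was at 8.98 CPM in 75 cartilage-like cells and 1.98 CPM in 51 limb bud mesenchyme-like cells, and Prtg at 15.2 and 9.21 CPM. These levels rest on 2 to 4 cells with at least 3 counts in each case, and no order is read from them. The cartilage-like name describes the cluster and not each cell. Its 2 such Igdcc3 cells held 2 and 300 counts of the cartilage marker Sox9, and 1199 and 943 of Scx. Its 4 such Prtg cells held 0, 106, 1 and 0 of Sox9, and 111, 9, 525 and 1623 of Scx. Scx was among its 10 leading genes. At Leiden resolution 0.5 these cells lay in an unnamed cluster with most limb bud mesenchyme-like cells. At E15.5 Prtg was at 16.2 CPM in 45 cells of an unnamed cluster led by Col1a1 and Col1a2, 3 of which held at least 3 counts. The leading genes of this cluster also held 8 cartilage markers, among them Col2a1, Col9a1 and Acan. With the connective tissue markers Col1a1, Col3a1 and Postn beside them, the cluster stays unnamed. Igdcc3 at this stage had 2 counts in 86 connective tissue-like cells and 0 in the unnamed collagen cluster.

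By CPM, Igdcc4 and Neo1 at E15.5 were higher in connective tissue-like cells and the unnamed collagen cluster than in epithelial, muscle-like and endothelium-like cells. By share of cells with a count this did not hold for Igdcc4 in muscle-like cells. There 63.6% held it, against 62.8% of connective tissue-like cells and 46.7% of the unnamed collagen cluster. Igdcc4 was at 97.0 CPM (92.7 to 102) in connective tissue-like cells and 73.7 CPM in the unnamed collagen cluster, against 34.6 CPM in 10 endothelium-like, 44.6 CPM in 11 muscle-like and 16.2 CPM (13.6 to 19.2) in 30 skin epithelium-like cells. Neo1 was at 93.9 CPM (89.7 to 98.3) and 109 CPM in the first pair, and at 20.8, 14.6 and 31.2 CPM in the other 3. The 7 limb bud mesenchyme-like cells of this stage held Igdcc4 at 11.3 and Neo1 at 53.4 CPM, and 8 cells of an unnamed cluster led by protocadherin alpha genes held 45.2 and 77.1 CPM. The 3 cartilage-like cells of this stage, with a median of 44436 counts in all, had 0 counts of either gene. These are values of 1 sample, and no test was made between clusters. In muscle-like cells Neo1 was at 14.6 CPM in 11 E15.5 cells and 132 CPM in 7 E12.5 cells, which are few cells of 1 sample each. Leaving out the skin epithelium-, muscle- and endothelium-like cells (5, 17 and 51 cells at the 3 stages) gave Igdcc4 22.8, 28.0 and 82.7 CPM and Neo1 21.6, 82.0 and 94.3 CPM. Igdcc3 was then at 1049, 7.60 and 0.0639 CPM, and Prtg at 292, 10.4 and 4.57 CPM.

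Marker lists were read against the shares called over all genes, which were 7.76% higher and 2.83% lower in E12.5 cells and 11.2% higher and 5.01% lower in E15.5 cells, both against E10.5. Of 11 connective tissue markers, 10 were called higher in the E12.5 cells and 11 in the E15.5 cells, both against E10.5. Their summed level per pool was 307 to 386, 1177 to 1922 and 5596 to 8851 CPM in stage order, with only Dpt at 0 in the E10.5 cells. Of 11 limb bud mesenchyme markers, 4 were lower in E12.5 and 7 in E15.5 cells, both against E10.5, with sums of 1913 to 2029, 1757 to 2076 and 526 to 1172 CPM. Against E10.5 cells, 6 of 13 cartilage markers were higher in E12.5 and 6 in E15.5 cells (pool sums 208 to 290, 544 to 2505 and 689 to 3241 CPM), as were 6 and 6 of 8 tendon markers (37.1 to 97.1, 671 to 1679 and 540 to 1500 CPM). Of 11 skin markers 2 and 8 were higher (12.3 to 43.8, 35.5 to 402 and 888 to 1854 CPM). Of 14 muscle markers 0 were higher and 2 lower in E12.5 cells, and 2 higher and 1 lower in E15.5 cells. Muscle markers summed to 184 to 225, 28.6 to 2559 and 67.4 to 972 CPM, and endothelium markers, of which 0 of 10 were called, to 117 to 264, 8.80 to 425 and 25.8 to 448 CPM. Of 6 macrophage and mast cell markers 1 was higher in E15.5 cells, and 0 of 6 red cell and 0 of 6 neural markers were called against E10.5. The sums also take listed genes with a count in too few cells to be called. They cover 15 muscle, 11 macrophage and mast cell, 10 red cell and 10 neural markers. Macrophage and mast cell markers summed to 0.627 to 8.77, 0.427 to 29.6 and 6.18 to 1888 CPM. Red cell markers summed to 0 to 2485, 0 to 69.3 and 0 to 147 CPM, and neural markers to 9.02 to 36.2, 20.9 to 35.0 and 26.2 to 88.1 CPM. The part of these cell types in the levels of the 4 genes was not tested beyond the values without other cell types given above.

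Correlations between the 4 genes over the cells of a stage were weak. In the cells labelled E10.5, Igdcc3 and Prtg had a Spearman correlation of 0.03 over 115 thinned cells, and Igdcc4 and Neo1 one of -0.16. Over all 6 pairs and 3 stages the values lay between -0.16 and 0.13, which in sparse counts is no finding. At E15.5 the 100 cells with Igdcc4 and the 124 with Neo1 shared 65 cells, 65% of the first and 52.4% of the second. Over all 200 cells of the stage 62% held Neo1 and 50% held Igdcc4, so the shares are near those of all cells.

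Of 7 other genes listed with the receptors of netrins and RGMs, Boc and Cdon among them, 2 were higher in the E12.5 cells against E10.5. None was lower, and over all genes 7.76% were higher and 2.83% lower. The median log2 ratio of the list was 0.30, against 0.17 over all genes. Boc, a coreceptor of hedgehog and a relative of Cdon, was at 58.6, 142 and 154 CPM over the 3 stages and was called at both later stages against E10.5 (1.21 and 1.33). Unc5c, a repulsive netrin receptor, was at 41.5, 140 and 72.5 CPM and was called at E12.5 only against E10.5 (1.64). Cdon stood at 141, 129 and 260 CPM and Unc5b at 37.8, 47.8 and 31.7 CPM, and neither was called. Dcc itself was at 3.73, 4.39 and 4.50 CPM. At E15.5 against E10.5, Boc and Unc5d were the 2 called higher and the median ratio was 0.74, against 0.15 over all genes. With so few genes, 0 lower is near the share over all genes.

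Among the ligands of this receptor family, Ntn3 and Cbln2 were called. Ntn3, a netrin, was at 13.9, 51.0 and 50.8 CPM in stage order and was called higher at both later stages (1.57 and 1.57). Cbln2, a secreted cerebellin of synapses, had 0 counts in the E10.5 cells, 3.37 CPM in the E12.5 cells and 32.4 CPM in the E15.5 cells, 43 of which held it. The E15.5 level was at least 365-fold higher than a floor of 3 counts summed over the E10.5 cells. Rgma and Rgmb, RGM ligands of neogenin, were at 10.7, 13.3 and 29.3 CPM and at 10.1, 14.6 and 21.2 CPM and were not called. Of 7 ligands measured, 1 was higher in E12.5 and 2 in E15.5 cells against E10.5, and 0 were lower. Over all genes 7.76% and 11.2% were higher and 2.83% and 5.01% lower, so 0 of 7 lower is near the share over all genes. Against E10.5 the median ratio of the list was 0.74 in E12.5 cells, or 1.08 with genes at 0 set to their bound, and 0.88 in E15.5 cells.

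Of 22 genes of shedding and signalling downstream of neogenin and Dcc, 1 was higher and 0 lower at E12.5 against E10.5, 0 higher and 2 lower at E15.5 against E12.5, and 3 higher and 1 lower at E15.5 against E10.5. Over all genes 7.76% were higher and 2.83% lower in the first comparison, 2.99% and 1.63% in the second, and 11.2% and 5.01% in the last. The counts of this list against E10.5 lie near these shares. The 2 lower at E15.5 against E12.5 lie above the share of 1.63%, but they are only 2 genes. The genes named are examples only. Psenen, a subunit of the gamma-secretase that cuts receptor stubs in the membrane, was at 26.8, 91.1 and 78.8 CPM (1.40 at E15.5 against E10.5). Aph1a, another subunit, was lower, at 52.4, 31.2 and 10.7 CPM (-1.87). Fyn, a Src-family kinase, was at 24.2, 39.9 and 68.2 CPM (1.32) and Nck1, an adaptor protein, at 6.37, 16.1 and 26.5 CPM (1.47). Adam17, a sheddase, was, with Aph1a, called lower in E15.5 against E12.5 cells (-1.28).

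Of 11 other surface proteins built of immunoglobulin and fibronectin domains, 3 were higher in E12.5 and 6 in E15.5 cells, both against E10.5, where 7.76% and 11.2% of all genes were. None of the 11 was lower, against 2.83% and 5.01% of all genes. Ncam1, a homophilic adhesion molecule, was at 52.6, 232 and 265 CPM (2.23 at E15.5), and Robo2, a Slit receptor, at 9.01, 90.6 and 68.3 CPM (2.39). Sdk1 and Chl1, adhesion molecules of the nervous system, were at 1.13, 6.41 and 14.9 CPM (1.70) and at 0.326, 8.74 and 11.7 CPM (1.65). The median ratio at E15.5 was 1.13, or 1.25 with Cntn3, at 0 in the E10.5 cells, set to its bound.

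Most genes of the Lin28 and let-7 axis were called lower by E15.5, and Igf2bp2 was called in no comparison. This list was chosen with earlier results of these cells known and is no independent support. Of its 9 genes, 6 were lower in E12.5 against E10.5 cells, 5 in E15.5 against E12.5 cells and 8 in E15.5 against E10.5 cells, with 0 higher in any comparison. Over all genes 2.83%, 1.63% and 5.01% were lower. Lin28a was read in 59, 0 and 2 cells in stage order, at 25.2, 0 and 0.152 CPM. Lin28b was at 169, 29.0 and 0.630 CPM, and Trim71, a ubiquitin ligase that let-7 represses, at 72.9, 10.7 and 1.78 CPM. Both were lower again in E15.5 against E12.5 cells, where Prtg was not called.

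Of the messenger-RNA-binding Igf2bp genes, Igf2bp1 was at 604.02, 252 and 96.6 CPM and Igf2bp3 at 607.4, 351 and 214 CPM, and Igf2bp2, at 261, 207 and 170 CPM, was not called. Hmga2, a chromatin protein of growing embryonic tissue, was at 1448, 1182 and 303 CPM, and was called lower in E15.5 cells against either earlier stage. Arid3a and Arid3b, DNA-binding proteins, were at 113, 24.2 and 15.6 CPM and at 34.1, 13.5 and 2.26 CPM. The median ratio of the list was -1.25, -1.21 and -2.52 in the order E12.5 against E10.5, E15.5 against E12.5 and E15.5 against E10.5. Seed matches in these genes are not counted as a result, since the list holds known let-7 targets.

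Seed matches were also counted in the 11459 tested genes with an annotated 3′ region that are neither receptors described here nor on the Lin28 and let-7 list. In E12.5 against E10.5 cells, 3.47% of 144 genes with at least 2 matches were lower, 3.86% of 1062 with 1 match and 2.70% of 10253 with 0. In E15.5 against E10.5 cells the lower shares were 6.94%, 6.40% and 4.96%. The median 3′ region was 3780 bases long in the first group, 2280 in the second and 1131 in the third. With the 6 list genes that hold at least 2 matches put back, the first group had 6.67% and 10.7% lower, so that much of its excess came from genes chosen for let-7. The shares were not tested.

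**Figure D4:**
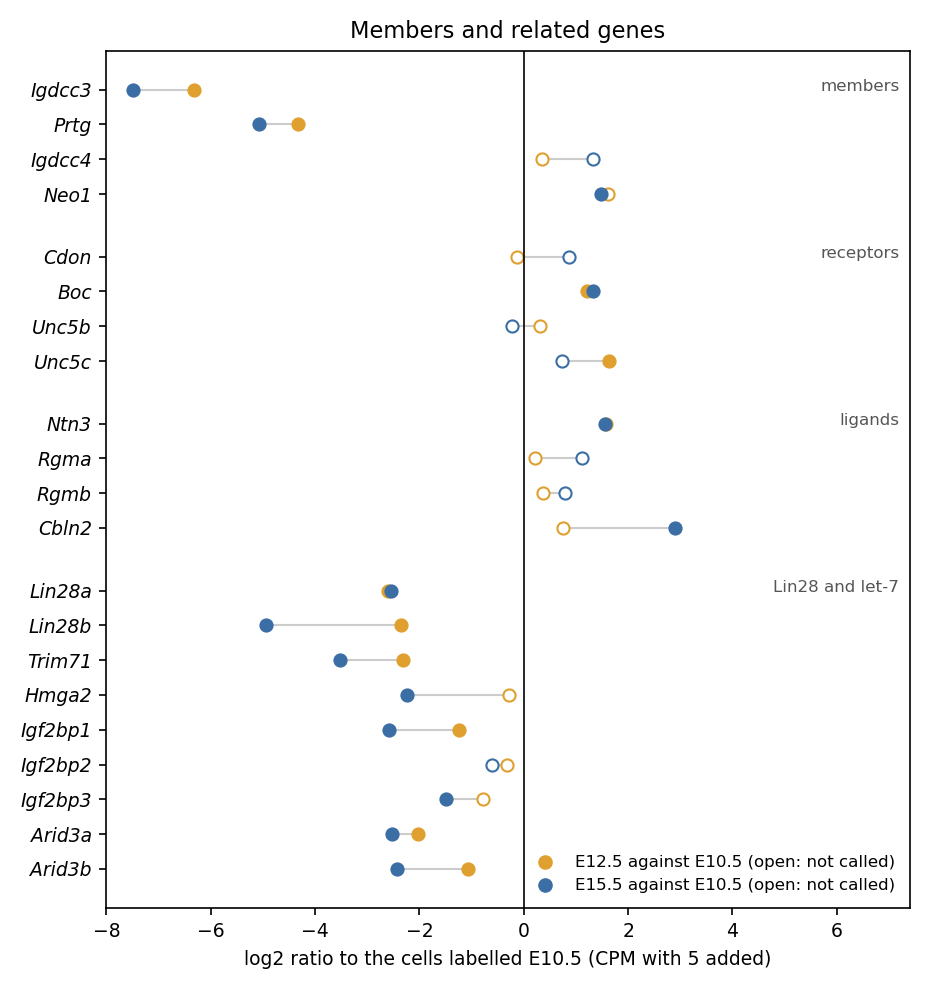
Log2 ratio to the cells labelled E10.5 (CPM with 5 added) at E12.5 and E15.5 for the 4 receptor genes and for members of the receptor, ligand and Lin28 and let-7 lists with at least 20 CPM at a stage. Filled points were called and open points were not. Igdcc3 (-6.32 and -7.48) and Prtg (-4.32 and -5.07) lie at the far left. The Lin28 and let-7 genes lie left of 0, with list medians of -1.25 and -2.52. The receptor and ligand lists lie near or right of 0.

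Of 28 tested genes that start within 500 kb of one of the 4 receptor genes, 2 were lower (Mns1 and Rfx7, near Prtg) and 3 higher (Spg21, Dyx1c1 and Cd276) in E12.5 against E10.5 cells. Those are 7.14% lower and 10.7% higher, against 2.83% and 7.76% over all genes. Around Igdcc3 alone, 0 of 13 were lower and 1 was higher. With so few genes no more is read from these counts. Igdcc4, which ends 3248 bases before Igdcc3 starts, had a ratio of 0.35 where Igdcc3 had -6.32. Parp16, an enzyme of the endoplasmic reticulum and the next gene after Igdcc3 in the table, held 1.61 CPM in E12.5 cells, against 10.3 CPM in E10.5 cells (-1.21, not called), and was read in 12 cells, against 7. Dpp8, a peptidase before Igdcc4, held 27.6 CPM in E12.5 cells, against 19.4 CPM in E10.5 cells (0.42, not called). Over chromosome 9 as a whole, 3.15% of 698 genes were lower, against 2.84% of 11126 genes elsewhere, and 7.31% against 7.79% were higher. Genes annotated as overlapping Prtg or Neo1 were not used here, and since strand use in counting is not given, reads of antisense partners cannot be told apart from theirs.

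**Figure D5:**
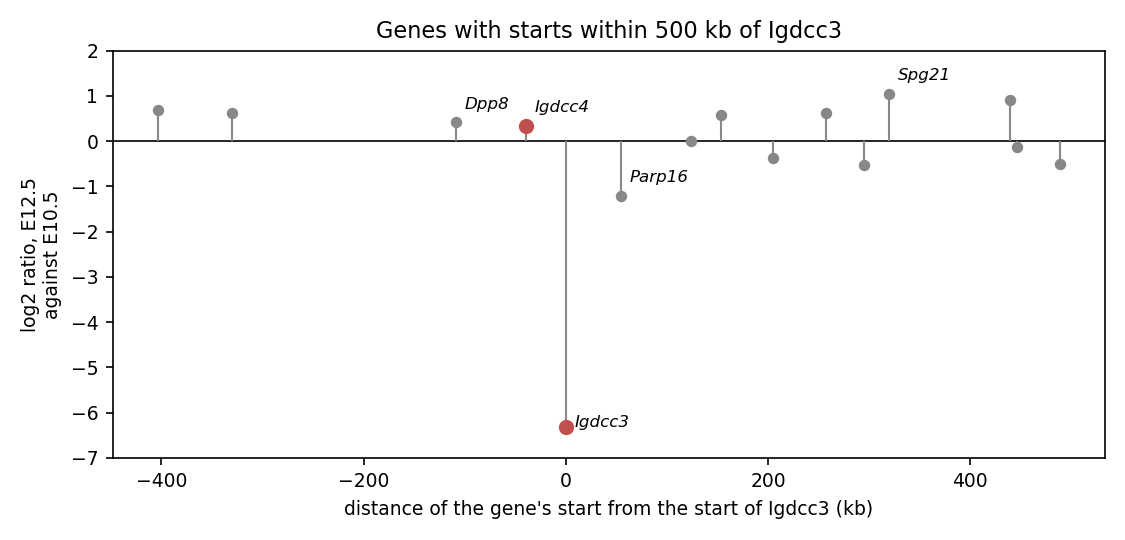
Log2 ratio of E12.5 against E10.5 cells (vertical) for genes with starts within 500 kb of the start of Igdcc3, by distance (kb). Igdcc3, at -6.32, stands alone, Parp16 is at -1.21 and the adjacent Igdcc4 at 0.35.

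The genes most like each receptor were ranked over the 12 pools by Pearson correlation of log2 CPM with 5 added, among 5409 genes with at least 50 CPM at a stage and a count in at least 20% of its cells. The pools share 3 stages and their libraries, so the values mostly follow the differences between stages. For Igdcc3 they were Hspa8 (0.99), a constitutive chaperone, LOC624853 (0.99), an entry with no further name in the table and with levels close to those of Hspa8, so that reads they share cannot be told apart, Sall4 (0.98), a zinc finger factor of early embryonic cells, Eef1g (0.97), an elongation factor, and Hsp90aa1 (0.96), a chaperone. Sall4 was at 134, 1.28 and 0.0652 CPM in stage order and Hspa8 at 6217, 2935 and 2634 CPM, so a high correlation over pools did not mean a fall of like size. For Prtg they were Cdv3 (0.97), the nucleolar proteins Nop56 (0.97) and Npm1 (0.97), Eef1g (0.96) and nucleolin, Ncl (0.96). Npm1 was at 4645, 2587 and 2193 CPM.

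For Igdcc4 the nearest were Mgp (0.93), an inhibitor of calcification, Tbrg1 (0.91), Tcf25 (0.91), Tnc (0.88), the matrix protein tenascin C, and Cytl1 (0.87), a secreted protein of cartilage. Mgp was at 0.0296, 11.0 and 120 CPM and Tnc at 0.563, 10.7 and 92.3 CPM. For Neo1 they were Klhdc3 (0.93), Trappc1 (0.91), a vesicle tethering subunit, Spty2d1 (0.91), Tax1bp1 (0.89), an autophagy receptor, and Gabarap (0.88), an autophagosome protein. Trappc1 was at 27.2, 102 and 89.5 CPM, a course close to that of Neo1.

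Over the 115 thinned cells labelled E10.5 the highest Spearman values were weak, at 0.36 (Aars) for Igdcc3, 0.39 (Pitrm1) for Prtg, 0.38 (Zc3hc1) for Igdcc4 and 0.34 (Far2) for Neo1. The next 4 were Zfhx4, Mrto4, Lhx9 and E2f3 for Igdcc3 and Ddx42, Bub3, Cttn and Anapc2 for Prtg. They were Dlg1, Invs, D15Ertd621e and Phc1 for Igdcc4, and Cdk5rap3, Ints1, Rhobtb3 and Rbms2 for Neo1. In sparse counts such values are no finding.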

How the data were processed

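Tissue was digested with type I collagenase and trypsin, per the labels' protocols, before capture on the Fluidigm C1 and Nextera XT library preparation. The deposited values were whole-number counts per gene and cell, with no sign that the authors had normalized them. The submitters' processing notes list Bowtie2, featureCounts and mm10. The sources used here give no versions, annotation, strand use or molecular identifiers. Counts were therefore taken as reads, which PCR can multiply. Whether reads cover whole transcripts is not given either, so no order of level between genes is read. Genes of like CPM were used only to compare detection and spread over cells. A further 1120 samples of the series are not analysed here.

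The count table lists 480 cells and 22738 entries, which gave 22092 symbols. The 40 cell indexes were used again in each of 12 pools, and 0 pairs of pool and cell index occurred more than once. At least 1000 detected genes were required of a cell. Counts were summed per stage and pool, and log2 ratios were taken with 5 added to each CPM. No doublet caller was run. Cells were clustered in scanpy 1.11.5 (Leiden resolution 1) without the 4 genes and named from marker lists. The code for the calls was run on simulated counts without pool or cell type effects, which cannot show how the rule behaves in these data. Positions and 3′ regions came from GENCODE on GRCm38. Promoters and microRNAs came from RefSeq (GRCm38.p6), which held all 4 genes. The 4 genes, the 17 gene lists and the tests were chosen with earlier results of these data known. Named genes were the receptor, ligand and Lin28 and let-7 genes with at least 20 CPM, the 4 largest ratios (E15.5 against E10.5) of the other pathway lists, the 5 most correlated genes and tested genes within 100 kb. Dcc, Unc5d, Adam17, Cntn3, Mns1 and Rfx7 were named after their values were seen. Of 187 list entries, 185 gave separate genes of the table. No explanation was tested.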

Additional observations from a re-analysis of the deposited data

Results flagged for a closer look

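Igdcc3 at E15.5 was read in a single library pool. Pool 12 had 2.73 CPM from 5 cells, 26 of its 30 counts in 1 cell, while the other 4 pools of the stage had 0 counts. Of 8 groups of pools examined (4 genes at E12.5 and at E15.5), it was the 1 with a pool far from the others. With 4 pools at 0 any count in the fifth pool would stand apart, so the usual chance rate of about 1 in 20 groups does not apply. Without pool 12, Igdcc3 has 0 counts at E15.5.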

How the results depend on the processing

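Each stage was 1 sample, so these alternatives show how far values hang on single pools, cells or settings and not on other embryos. No paired analysis was possible because a replicate number only counts the cells of a stage in accession order and pairs nothing, and no test was made. The 4 genes were called again under 20 alternatives. The calls of Igdcc3 and Prtg against E10.5 at both later stages kept direction and threshold under each, as did Neo1 in E15.5 against E10.5 cells. The stricter log2 ratio of 2 given below was run for counts of all genes only, and Neo1, at 1.49, lies under it. With each pool left out in turn, Igdcc3 ranged between -6.51 and -6.05 at E12.5 against E10.5 and between -1.43 and -0.97 at E15.5 against E12.5. Igdcc4 ranged between 0.84 and 1.12 at E15.5 against E12.5 and between 1.19 and 1.53 at E15.5 against E10.5. Neo1 ranged between 1.19 and 2.03 at E12.5 against E10.5 and between -0.30 and 0.30 at E15.5 against E12.5. Igdcc4 was called higher at E15.5 against E10.5 with the mean CPM of cells (1.29), with the top cell per gene and pool removed (1.66), and without epithelium-, muscle- and endothelium-like cells (1.66), an alternative added after the data were seen. Leaving out the highest cells or those cell types also gave calls at E15.5 against E12.5 (1.24 and 1.41). Neo1 was called higher at E12.5 against E10.5 without those cell types (1.71), and its ratio at E15.5 against E12.5 was 0.29 with mean CPM of cells and 0.19 without them. Of all genes, 184 were lower and 458 higher with 20 added to CPM (371 and 1018 with 5) at E12.5 against E10.5, 91 and 211 (214 and 392) at E15.5 against E12.5, and 373 and 791 (657 and 1475) at E15.5 against E10.5. At a log2 ratio of 2 they were 47 and 247, 12 and 133, and 82 and 537. With median-of-ratios scaling the median log2 ratio of all genes was 0.08 in place of 0.17 at E12.5 against E10.5, and the median change per gene was -0.10. Of 36 other values for shares of cells, 26 moved past their interval when 3 counts were asked for or cells were thinned. Shares thus depend on the counts asked for and on depth, which this tally does not separate. With 3 counts as the floor, a gene at 0 lies under 0.0889 CPM at E10.5.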
